A study of Mus musculus with 55 samples.

Results

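The genes described here drive and brake the cell cycle in mouse liver, or respond to the tumour suppressor p53. They were chosen by name, as cyclins, cyclin-dependent kinases (CDKs), CDK inhibitors, E2F factors, pocket proteins, Cdc20, the Cdc14 and Cdc25 phosphatases, the kinases Wee1 and Pkmyt1, Mdm and p53 names, and a fixed set of p53 targets. The rule found 31 genes among the 4113 that the authors list in either of their RNA-seq comparisons. The table of Setd8-LKO + TCPOBOP, with 3900 genes, holds all 31, and 4 of them, Ccnb1, Cdc20, E2f2 and Cdk18, are also among the 719 listed for WT + TCPOBOP, each against untreated WT. The rule's pattern covers 87 annotated protein-coding genes, of which 29 are listed, and the other 58, including Trp53, Mdm2, Bax, Bbc3, Cdk2, Cdk4, Cdk6, Cdkn1b, Cdkn2a, E2f1 and Rb1, were not analysed here. Some members entered by spelling only: Mdm1 is not a relative of Mdm2, Ccnb1ip1 is a ubiquitin ligase, and Ccnb1-ps is a pseudogene of Ccnb1.

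Cyclins bind and activate CDKs. D and E type cyclins act in G1 and at the entry into S phase, cyclin A in S and G2 phase, and B type cyclins with Cdk1 drive mitosis. CDK inhibitors such as p21, the product of Cdkn1a, block these kinases, pocket proteins hold E2F factors in check, and p53 switches on Cdkn1a and other genes after DNA damage. Most hepatocytes of the adult liver rest outside the cell cycle, and the liver can return to proliferation after injury or exposure to a mitogen.

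Total RNA of whole liver was sequenced from 5 untreated wild type (WT) mice, 5 WT mice 24 h after TCPOBOP and 4 Setd8-LKO mice 24 h after TCPOBOP, all males aged 45 to 50 days. TCPOBOP, an agonist of the nuclear receptor CAR and a liver mitogen, was injected once at 3 mg/kg. Setd8-LKO mice carry loxP-flanked alleles of exon 7 of Setd8, an H4K20 monomethyltransferase, and Cre under the albumin promoter, which is active in hepatocytes, so other liver cells keep the gene. Untreated Setd8-LKO livers were not analysed here, so genotype and treatment change together in the comparison of libraries labelled Setd8-LKO with untreated WT. The controls are called untreated by their labels, whereas the methods name a vehicle injection and the study's reporting form a mock treatment with DMSO. The labels do not name the mice, but the methods describe the RNA samples as 4 and 5 biological replicates. The p-values measure the spread between these libraries.

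Kmt5a, the gene of Setd8, had normalized counts of 1341, 1465, 1338 and 1313 in libraries 1 to 4 labelled Setd8-LKO and from 563 to 761 in the 5 untreated WT libraries, higher in every library labelled Setd8-LKO (log2 fold change 1.08, SE 0.14, edgeR adjusted p = 0.000445). Counts over the whole gene do not show whether 1 exon is missing. The paper reports full inactivation of Setd8 in hepatocytes of this line, and loss of H4K20 monomethylation by immunostaining after TCPOBOP. Groups are named by their labels below. Raw counts summed over the listed genes ranged from 5734065 to 12780869 per library in the first table and from 1389901 to 3706582 in the second, which are not sequencing depths because unlisted genes are missing from both. A normalized count is the raw count times 1 factor per library, set by the authors. Library names in the tables carry 1 of 2 run names, run A with 3 untreated WT libraries, 1 library labelled Setd8-LKO and 3 WT + TCPOBOP libraries, and run B with 2, 3 and 2.

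Among the 31 genes, 28 rose and 1 fell in the libraries labelled Setd8-LKO against untreated WT. A gene was called when edgeR's quasi-likelihood test gave an adjusted p under 0.05 and the log2 fold change was at least 1 in size. The Benjamini-Hochberg adjustment ran over all 55450 annotated genes, with unlisted ones given the highest possible p. The listed genes were chosen by the authors on this same contrast. Of the 3807 genes tested, 50.7% were called higher and 33.9% lower, so the calls of the members are a description. Their median log2 fold change was 2.08, beside 1.19 over all genes tested. In 29 of the 31, the 4 libraries labelled Setd8-LKO did not overlap the 5 untreated libraries, beside 86.9% of all genes tested. All 31 had the same direction within run A and within run B. That share was not computed over all genes tested, and the genes were chosen on these same libraries, so it is a description too. In whole liver RNA, fewer cells of a type and less RNA per cell cannot be told apart. With size factors that DESeq2 computed over the listed genes alone, the median of all genes shifted by -0.82 on the log2 scale, and 20 members were called, 19 higher and 1 lower.

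**Figure D1:**
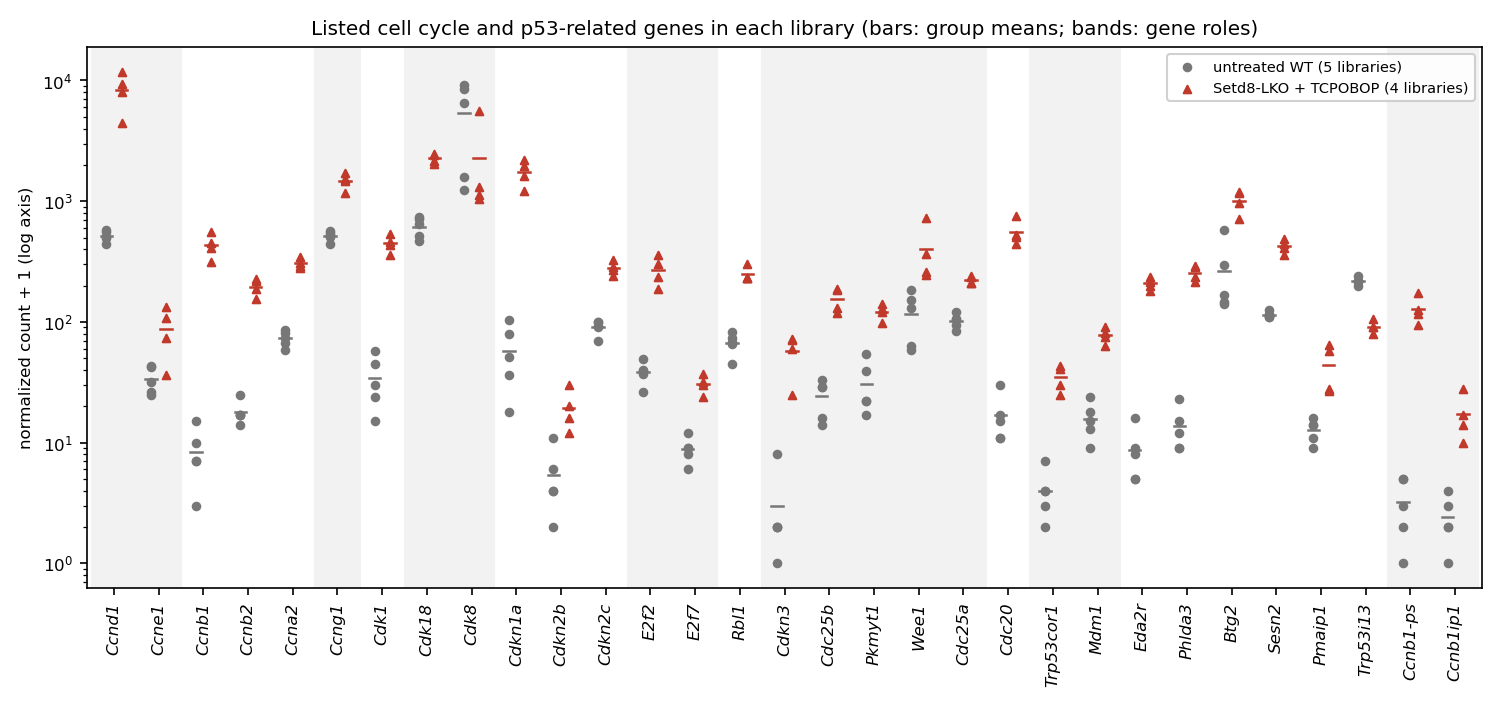
Normalized counts plus 1 (log axis) of the 31 genes in each of the 5 untreated WT libraries (grey circles) and the 4 libraries labelled Setd8-LKO, all treated with TCPOBOP (red triangles), with short bars at the group means and shaded bands separating the gene roles. The red triangles lie above all grey circles for most genes, overlap them for Ccne1 and Cdk8, and lie below them for Trp53i13.

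Among the G1 cyclins, Ccnd1 rose the most. Ccnd1 (chr7:144929931-144939925), which encodes cyclin D1, the partner of Cdk4 and Cdk6, had normalized counts of 577, 555, 490, 504 and 439 in untreated WT libraries 1 to 5 and of 7988, 9323, 4450 and 11853 in libraries 1 to 4 labelled Setd8-LKO. All 4 treated libraries were far above the untreated ones, although they differed among themselves by more than the whole untreated range. Ccnd1 rose by 4.03 on the log2 scale (SE 0.27, adjusted p = 8.78e-06), by 4.63 within run A and by 3.68 within run B. Per kilobase of exon, Ccnd1 went from 109 to 1785 normalized counts and became the highest of the 31 genes in the libraries labelled Setd8-LKO.

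Ccne1 (chr7:38097984-38107534), the gene of cyclin E1, which activates Cdk2 at the entry into S phase, did not pass the test. Its normalized counts were 25, 24, 41, 42 and 31 in untreated WT and 72, 106, 35 and 132 in the libraries labelled Setd8-LKO. The third of these lay within the untreated range and the other 3 above it. Fitted over all libraries, the log2 fold change was 1.39 (SE 0.37, adjusted p = 0.0543, exact two-sided permutation p = 0.0238), and without library 3 labelled Setd8-LKO it was 1.65 with an adjusted p of 0.00424. Ccne1 was also called with run as a term (log2 fold change 1.63, adjusted p = 0.0132), with TMM factors (adjusted p = 0.0325), with DESeq2 (adjusted p = 0.00846) and with adjustment over the listed genes alone (adjusted p = 0.00373). Under the other 12 of 17 alternative settings it was not called.

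Of the 5 annotated cyclins of S, G2 and M phase 3 are listed, and all 3 rose, beside 50.7% of all genes tested. Ccnb1 (chr13:100778650-100786570), the gene of cyclin B1, had the largest fitted rise of the members beside that of its pseudogene, from normalized counts of 2, 6, 9, 6 and 14 in untreated WT to 447, 313, 559 and 410 in those labelled Setd8-LKO. Untreated livers gave few counts of this gene, and each treated library exceeded the highest of them many times over. Its log2 fold change was 5.80 (SE 0.38, adjusted p = 8.78e-06), 5.41 within run A and 6.78 within run B.

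Ccnb2 (chr9:70407692-70421547), which encodes the other B type mitotic cyclin, had normalized counts of 16, 13, 16, 16 and 24 in untreated WT and 216, 154, 224 and 187 in the libraries labelled Setd8-LKO. Its log2 fold change was 3.50 (SE 0.23, adjusted p = 9.17e-06). Ccna2 (chr3:36564865-36572150), the gene of cyclin A2, went from 80, 73, 85, 66 and 58 to 347, 288, 308 and 279 normalized counts. The groups were well apart for both, but Ccna2 started higher and rose less, with a log2 fold change of 2.08 (SE 0.17, adjusted p = 3.03e-05).

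Cdk1 (chr10:69335146-69352938), the kinase that B type cyclins activate, is the only one of the 4 cell cycle CDKs (Cdk1, Cdk2, Cdk4 and Cdk6) that is listed. Its normalized counts were 14, 23, 56, 29 and 44 in untreated WT and 459, 431, 538 and 358 in the libraries labelled Setd8-LKO. The lowest treated library was several times above the highest untreated one. Cdk1 rose by 3.75 on the log2 scale (SE 0.35, adjusted p = 5.96e-05), with 3.06 within run A and 4.69 within run B.

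Cdc20 (chr4:118432901-118437352), which activates the anaphase-promoting complex and so the destruction of cyclin B, rose from normalized counts of 10, 14, 16, 10 and 29 to 507, 442, 754 and 524. Its log2 fold change of 5.13 (SE 0.33, adjusted p = 7.23e-06) was next to those of Ccnb1 and Ccnb1-ps. Ccnb1-ps, the pseudogene, had normalized counts of 0, 4, 2, 1 and 4 in untreated WT and of 124, 93, 171 and 116 in the libraries labelled Setd8-LKO. Its log2 fold change was 5.77 (SE 0.47, adjusted p = 2.61e-05). Reads of Ccnb1 can align to this copy, so how its counts divide between the locus and Ccnb1 is uncertain.

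Promoters of cell cycle genes often carry a CHR element (TTTGAA, or the variant TTTAAA), the landing site of the DREAM and MuvB complexes, with CCAAT boxes bound by NF-Y, or E2F sites. The promoters of the mitotic genes with the largest rises, Ccnb1, Cdc20, Cdkn3, Cdk1 and Ccnb2, and of Rbl1, whose E2F site is described below, show how these motifs lie beside each other. Each line gives 200 bases before and 30 bases after the start, 5′ to 3′ on the strand of the gene, from RefSeq on GRCm38.p6. Capitals mark both CHR forms, the CCAAT box and the E2F site TTTCGCGC, on either strand.
Ccnb1 (chr13:100786457-100786686, minus strand): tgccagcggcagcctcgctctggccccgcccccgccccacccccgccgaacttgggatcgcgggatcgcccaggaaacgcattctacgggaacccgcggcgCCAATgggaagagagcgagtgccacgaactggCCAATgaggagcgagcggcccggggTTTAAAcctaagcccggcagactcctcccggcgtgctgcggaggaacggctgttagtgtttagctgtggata
Ccnb2 (chr9:70421525-70421754, minus strand): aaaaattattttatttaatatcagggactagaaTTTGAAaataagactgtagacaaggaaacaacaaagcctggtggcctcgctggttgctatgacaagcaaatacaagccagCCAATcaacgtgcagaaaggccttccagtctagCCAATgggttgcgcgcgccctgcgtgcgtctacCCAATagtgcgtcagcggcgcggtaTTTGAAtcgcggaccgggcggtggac
Cdc20 (chr4:118437314-118437543, minus strand): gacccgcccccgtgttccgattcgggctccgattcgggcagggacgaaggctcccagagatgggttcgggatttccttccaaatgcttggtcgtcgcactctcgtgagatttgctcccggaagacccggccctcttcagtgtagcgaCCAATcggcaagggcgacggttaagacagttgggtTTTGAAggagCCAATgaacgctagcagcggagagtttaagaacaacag
Cdk1 (chr10:69352883-69353112, minus strand): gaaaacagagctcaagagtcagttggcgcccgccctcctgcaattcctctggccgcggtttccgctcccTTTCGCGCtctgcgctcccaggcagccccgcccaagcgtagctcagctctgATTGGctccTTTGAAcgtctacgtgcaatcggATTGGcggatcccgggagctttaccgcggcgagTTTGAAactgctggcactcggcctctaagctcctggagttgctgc
Cdkn3 (chr14:46760341-46760570, plus strand): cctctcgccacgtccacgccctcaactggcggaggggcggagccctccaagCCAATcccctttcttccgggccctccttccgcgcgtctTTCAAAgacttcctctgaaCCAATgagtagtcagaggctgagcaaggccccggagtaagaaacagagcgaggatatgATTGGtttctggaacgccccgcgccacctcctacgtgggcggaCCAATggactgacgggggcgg
Rbl1 (chr2:157204505-157204734, minus strand): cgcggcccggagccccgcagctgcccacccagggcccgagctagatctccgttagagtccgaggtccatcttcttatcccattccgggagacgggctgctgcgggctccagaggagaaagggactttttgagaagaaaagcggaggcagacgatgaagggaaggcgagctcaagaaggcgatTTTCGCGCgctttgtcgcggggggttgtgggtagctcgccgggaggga

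In the Ccnb1 promoter, CCAAT boxes began at -99 and -67 and TTTAAA at -42, counted from +1 at the start with no 0, so that the boxes were 32 bases apart. Ccnb2 held CCAAT boxes at -87, -54 and -21, 33 bases apart, with TTTGAA at +5, 25 bases after the last box. Cdc20 carried TTTGAA at -18 between CCAAT boxes at -53 and -8. Cdk1 had TTTCGCGC at -131 as well as TTTGAA at -71 and -15. The promoter table held 24 of the 31 members, in windows of 250 bases before to 50 after the start. The entries of Ccnd1, Ccna2, Wee1, Pkmyt1, Pmaip1, Trp53cor1 and Ccnb1-ps are missing.

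A CCAAT box on either strand stood in 16 of these 24 promoters (66.7%), against 41.1% of 27025 genes. TTTGAA stood in 6 (25.0% against 20.2%) and TTTAAA in 2 (8.33% against 14.9%). Together with a CCAAT box, TTTGAA or TTTAAA stood in 6 promoters (25.0% against 12.2%), those of Ccnb1, Ccnb2, Cdc20, Cdk1, Cdkn3 and E2f2. TTTCGCGC stood in Cdk1 and Rbl1 (8.33% against 0.374%), where it overlaps the reverse complement of GCGCGAA (8.33% against 1.81%), and GCGGGAA stood in Cdkn2c and E2f7 (8.33% against 5.29%). These shares describe letters in a window, without a test.

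The phosphatases and kinases that set the timing of Cdk1 rose in both opposing classes. Cdc25b (chr2:131186949-131198497), a phosphatase that removes inhibitory phosphates from CDKs, went from 15, 28, 28, 13 and 32 normalized counts to 187, 117, 129 and 182 (log2 fold change 2.73, SE 0.30, adjusted p = 0.000166). Cdc25a (chr9:109875579-109893895), which acts earlier in the cycle, went from 83, 104, 104, 120 and 94 to 207, 233, 208 and 239. Its groups did not overlap, but its log2 fold change of 1.13 (SE 0.17, adjusted p = 0.00111) was the smallest among the genes called higher, and with size factors over the listed genes it was 0.31 (adjusted p = 1).

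Cdkn3 (chr14:46760541-46771669), a phosphatase of the activating site of CDKs, had normalized counts of 0, 1, 7, 1 and 1 in untreated WT and 71, 24, 70 and 59 in the libraries labelled Setd8-LKO. Its log2 fold change was 4.62 (SE 0.63, adjusted p = 0.000673), with 4.30 within run A and 6.78 within run B, where the untreated libraries are at 0 and 1. Pkmyt1 (chr17:23726336-23736735), a kinase that inhibits Cdk1, went from 16, 21, 38, 21 and 53 to 119, 139, 126 and 97 normalized counts, a log2 fold change of 2.01 (SE 0.34, adjusted p = 0.00279).

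Wee1 (chr7:110122046-110143286), the nuclear counterpart of Pkmyt1, rose by an amount that differed between the runs. In run A, normalized counts were 58, 129 and 62 in untreated WT libraries 3 to 5 and 727 in the only library labelled Setd8-LKO, and in run B they were 182 and 150 in untreated WT and 245, 362 and 259 in libraries labelled Setd8-LKO. Its log2 ratio was thus 3.13 in run A and 0.80 in run B. Over both runs the log2 fold change was 1.78 (SE 0.42, adjusted p = 0.0280). The call was lost without library 2 or 4 labelled Setd8-LKO or untreated library 3, 4 or 5 (adjusted p = 0.0604 to 0.104).

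Cdkn1a (chr17:29090976-29100727), the gene of the CDK inhibitor p21, rose the most of the 3 listed CDK inhibitors. Its normalized counts were 17, 35, 78, 50 and 103 in untreated WT and 1961, 1614, 2193 and 1221 in the libraries labelled Setd8-LKO. Every treated library was more than 10 times the highest untreated one. Over both runs it rose by 4.94 on the log2 scale (SE 0.45, adjusted p = 5.14e-05), by 3.99 within run A and by 6.21 within run B, and per kilobase of exon the level went from 15.9 to 492 normalized counts.

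Trp53cor1 (chr17:29057430-29079179), a long noncoding RNA known as lincRNA-p21, starts 11796 bases upstream of Cdkn1a and runs away from it on the opposite strand. It had normalized counts of 1, 3, 6, 2 and 3 in untreated WT and 24, 40, 29 and 42 in the libraries labelled Setd8-LKO, a log2 fold change of 3.42 (SE 0.40, adjusted p = 0.000237). The pair rose together, while per kilobase Trp53cor1 reached 9.04 normalized counts, far below Cdkn1a.

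The other CDK inhibitors, which act on Cdk4 and Cdk6, rose less. Cdkn2c (chr4:109660876-109667189), the gene of p18, went from 89, 99, 99, 69 and 91 normalized counts to 239, 282, 322 and 269 (log2 fold change 1.64, SE 0.17, adjusted p = 0.000130). Cdkn2b (chr4:89306299-89311039), the gene of p15, went from 1, 10, 3, 5 and 3 to 19, 29, 11 and 15, with a gap of 1 normalized count between the groups. Its log2 fold change of 2.02 (SE 0.49, adjusted p = 0.0321) lost the call without any 1 of 7 libraries (library 1, 2 or 4 labelled Setd8-LKO, or untreated library 1, 3, 4 or 5), at adjusted p from 0.0554 to 0.132, and with run as a term (adjusted p = 0.0989).

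Activating and repressing E2F partners also rose together. E2f2 (chr4:136172394-136196057), a transcriptional activator of S phase genes, went from 36, 48, 38, 39 and 25 to 236, 300, 354 and 188 normalized counts (log2 fold change 2.85, SE 0.25, adjusted p = 3.81e-05). E2f7 (chr10:110745439-110787384), a repressor that contributes to polyploidy of hepatocytes, went from 5, 11, 8, 7 and 8 to 31, 36, 29 and 23 (log2 fold change 1.91, SE 0.27, adjusted p = 0.000975). Rbl1 (chr2:157145893-157204534), the pocket protein p107 and itself a known E2F target, went from 67, 44, 82, 73 and 65 to 230, 298, 229 and 231, a log2 fold change of 1.89 (SE 0.21, adjusted p = 0.000152).

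**Figure D2:**
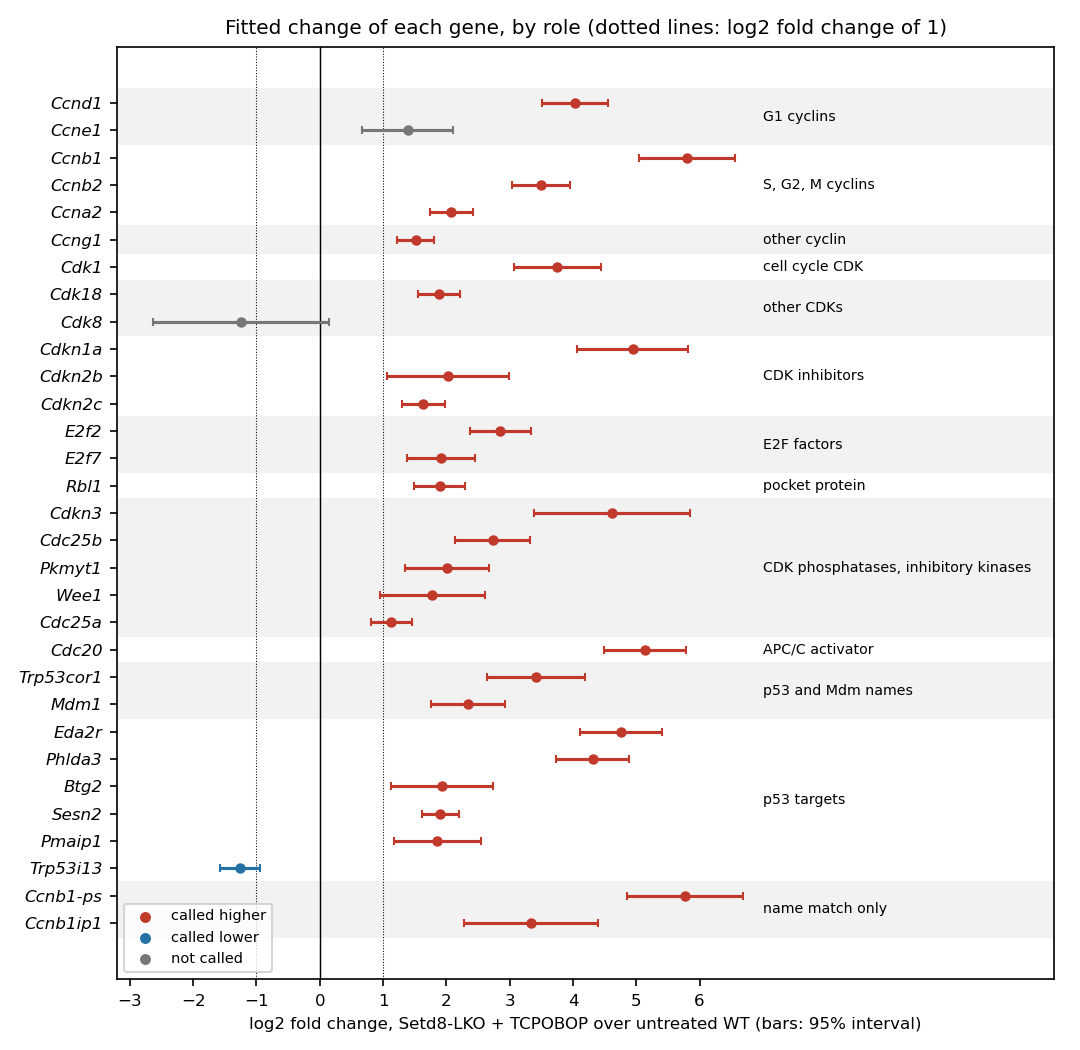
Log2 fold change of each of the 31 genes between libraries labelled Setd8-LKO (TCPOBOP-treated, n = 4) and untreated WT (n = 5), from edgeR, with 95% intervals and the genes ordered by role. Red points were called higher, the blue point (Trp53i13) lower and grey points (Ccne1, Cdk8) were not called, and the values run from -1.26 to 5.80.

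Of the 13 annotated p53 targets of the rule 6 are listed, and 5 of these rose. Of all genes tested, which the authors chose on this same contrast, 50.7% were called higher. Eda2r (chrX:97333840-97377216), a death receptor of the TNF receptor family, had normalized counts of 4, 15, 4, 7 and 8 in untreated WT and 236, 199, 179 and 214 in the libraries labelled Setd8-LKO. Phlda3 (chr1:135766119-135769136), an inhibitor of Akt signalling, went from 8, 8, 11, 22 and 14 to 282, 236, 213 and 289. Both gave few counts in untreated liver and rose by 4.76 (SE 0.33, adjusted p = 1.10e-05) and 4.31 (SE 0.30, adjusted p = 1.06e-05) on the log2 scale.

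Sesn2 (chr4:132492032-132510501), a stress-induced inhibitor of mTORC1, was tight within groups, at 124, 108, 108, 110 and 115 against 406, 358, 489 and 442 normalized counts (log2 fold change 1.90, SE 0.15, adjusted p = 2.22e-05). Btg2 (chr1:134075170-134079120), an antiproliferative gene, varied more in untreated WT, with 146, 140, 576, 166 and 296 against 1171, 972, 705 and 1199. Untreated library 3 came close to the lowest treated library, and the log2 fold change was 1.93 (SE 0.41, adjusted p = 0.0139). Pmaip1, which encodes the BH3-only protein Noxa, went from 13, 15, 8, 13 and 10 to 56, 63, 26 and 27 (log2 fold change 1.85, SE 0.35, adjusted p = 0.00631).

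Ccng1 (chr11:40748552-40755311), the gene of cyclin G1, counts as a cyclin by name and is known as a p53 target. Its normalized counts were 440, 505, 528, 544 and 568 in untreated WT and 1718, 1539, 1172 and 1482 in the libraries labelled Setd8-LKO. Ccng1 rose by 1.52 on the log2 scale (SE 0.15, adjusted p = 8.03e-05). With size factors over the listed genes, the calls of Ccng1, Btg2, Pmaip1, Cdkn2c, Cdkn2b, E2f7, Pkmyt1, Wee1 and Cdc25a were lost, and their log2 fold changes, from 0.31 to 1.21, kept their direction.

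Trp53i13 (chr11:77508099-77515980) was the only gene of the 31 that fell. Its normalized counts were 219, 198, 217, 240 and 212 in untreated WT and 78, 90, 105 and 89 in the libraries labelled Setd8-LKO, with no overlap. Fitted over all libraries, the log2 fold change was -1.26 (SE 0.16, adjusted p = 0.000468), -1.33 within run A and -1.20 within run B.

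Cdk8, a kinase of the Mediator complex and not of the cell cycle engine, followed the run more than the group. In run A its normalized counts were 9157, 8473 and 6483 in untreated WT libraries 3 to 5 and 5588 in the library labelled Setd8-LKO, and in run B they were 1235 and 1596 in untreated WT and 1308, 1050 and 1129 in the libraries labelled Setd8-LKO. Within each run the values were of one order, and between the runs they differed several times over in both groups. The log2 fold change of -1.25 (95% interval -2.64 to 0.14, adjusted p = 1, exact two-sided permutation p = 0.143) was -0.52 within run A and -0.28 within run B.

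**Figure D3:**
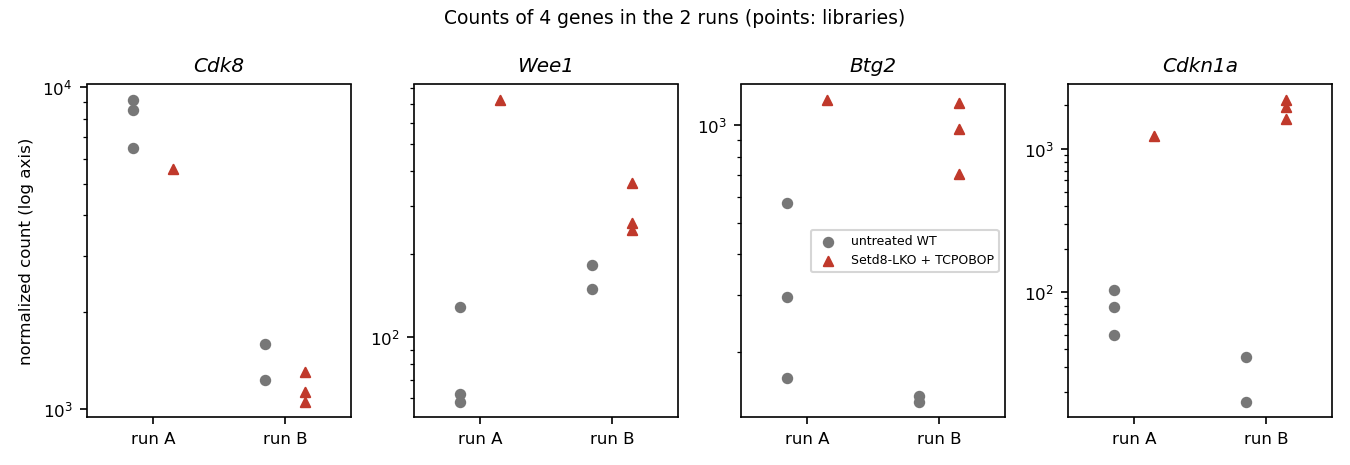
Normalized counts (log axis) of Cdk8, Wee1, Btg2 and Cdkn1a in run A and run B, for untreated WT libraries (grey circles, 3 in run A and 2 in run B) and libraries labelled Setd8-LKO with TCPOBOP (red triangles, 1 and 3). Cdk8 is high in run A in both groups, the treated library of run A has the highest Wee1 value at 727, and Btg2 and Cdkn1a of untreated WT are on average lower in run B.

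Within-run log2 ratios differed by more than 1 between the runs for 7 members, Cdk1, Mdm1, Cdkn1a, Pkmyt1, Cdkn3, Ccnb1 and Wee1, the last being the only one of them with the larger ratio in run A. Run A rests on a single treated library. Of the members matched by spelling, Mdm1 rose by 2.35 on the log2 scale (SE 0.30, adjusted p = 0.000432), from 8 to 23 normalized counts in untreated WT to between 62 and 90. Ccnb1ip1 was at 0 to 3 normalized counts in untreated WT and 9 to 27 in the libraries labelled Setd8-LKO (log2 fold change 3.33, SE 0.54, adjusted p = 0.00224).

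In WT livers treated with TCPOBOP, only Cdk18 was called among the 4 listed members, against 51.3% of 679 genes tested that were called higher in that comparison. Cdk18 (chr1:132112237-132139684), a kinase of the PCTAIRE group without an established role in the cell cycle engine, had normalized counts of 734, 707, 467, 646 and 514 in untreated WT, 2636, 2740, 2829, 2169 and 1978 in WT + TCPOBOP and 2159, 2029, 2479 and 2395 in the libraries labelled Setd8-LKO. Both treated groups lay above the untreated one without overlap and overlapped each other. The log2 fold change was 2.01 (SE 0.19, adjusted p = 0.000272) in WT + TCPOBOP and 1.88 (SE 0.17, adjusted p = 4.83e-05) in the libraries labelled Setd8-LKO. These comparisons share the untreated libraries. With size factors over the listed genes the log2 fold change in WT + TCPOBOP was 0.84 (adjusted p = 0.0796).

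The other 3 genes were higher on average in WT + TCPOBOP but did not pass the test, and 1 of the 4 members, Cdk18, had groups that did not overlap, beside 81.7% of all genes tested. Ccnb1 had normalized counts of 36, 10, 19, 28 and 30 in WT + TCPOBOP libraries 1 to 5, of which library 2 lay within the untreated range of 2 to 14. The log2 fold change was 1.66 (SE 0.46, adjusted p = 0.353). For Cdc20 the values were 56, 15, 33, 109 and 50, again with library 2 in the untreated range of 10 to 29, and the log2 fold change was 1.72 (SE 0.49, adjusted p = 0.439).

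E2f2 was at 72, 33, 71, 219 and 151 normalized counts in WT + TCPOBOP, with the highest values in libraries 4 and 5, which are those of run B (log2 fold change 1.54, SE 0.45, adjusted p = 0.474). The log2 ratios within run A and run B were 0.79 and 2.14 for E2f2, 0.92 and 2.73 for Cdc20 and 1.16 and 2.86 for Ccnb1, and for Cdk18 they were 2.33 and 1.53. When adjustment was made over the listed genes alone, all 4 members were called, at adjusted p of 0.00432 for Ccnb1, 0.00538 for Cdc20 and 0.00581 for E2f2, beside 68% of the 679 genes called higher. The count of called members in WT + TCPOBOP thus rests on how many genes the adjustment covers.

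The treated groups could be set against each other for the 506 genes in both tables, because the counts and factors of the untreated libraries are the same in both. This test was chosen after the data had been seen. Ccnb1 was higher in the libraries labelled Setd8-LKO than in WT + TCPOBOP by 4.13 on the log2 scale (95% interval 3.34 to 4.92, adjusted p = 6.29e-05) and Cdc20 by 3.41 (95% interval 2.52 to 4.29, adjusted p = 0.00134). These 2 of 4 members were called, beside 9.09% of the 506 genes called higher. The difference for E2f2 was 1.31 (95% interval 0.49 to 2.13, adjusted p = 1), a call that turned with adjustment over the 506 genes alone (adjusted p = 0.0149, 3 of 4 members called higher beside 17.6% of the 506 genes), and that for Cdk18 was -0.12 (95% interval -0.48 to 0.23, adjusted p = 1). With run as a term, Ccnb1 differed by 4.16 and Cdc20 by 3.34.

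**Figure D4:**
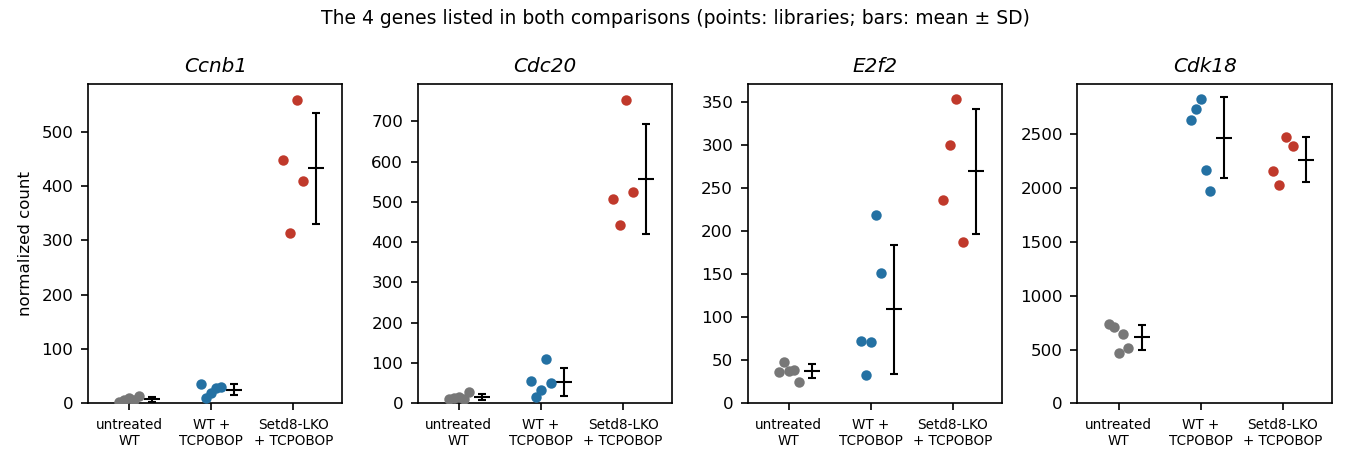
Normalized counts of Ccnb1, Cdc20, E2f2 and Cdk18 in untreated WT (grey, n = 5), WT + TCPOBOP (blue, n = 5) and libraries labelled Setd8-LKO with TCPOBOP (red, n = 4), with the mean and SD beside the points on axes that start at 0. Ccnb1 and Cdc20 are high only in the red points, at 313 and above and 442 and above, whereas Cdk18 is as high in the blue points as in the red ones.

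Other genes of these pathways were read from lists of known members. Of 40 p53 targets on a wider list, 18 are listed for Setd8-LKO + TCPOBOP, 7 of them members of the naming rule, and all 18 rose, with a median log2 fold change of 1.92, beside 50.7% called higher and a median of 1.19 over all genes tested. With size factors over the listed genes, 9 of the 18 were called, all higher, with a median of 1.11. The largest log2 fold changes of the 18 were those of Ckap2 (5.75) and Psrc1 (5.48). Both, and Gtse1 (4.19), are among these 9. Whether the rises of the 18 came from p53 was not tested. Gdf15, a stress cytokine, went from 103 ± 39.9 (SD, n = 5) to 2605 ± 797 normalized counts (SD, n = 4), a log2 fold change of 4.66 (SE 0.31, adjusted p = 9.17e-06). Tnfrsf10b, a death receptor, went from 4.6 ± 0.55 to 130 ± 11.5, and like Gdf15 it remained called with size factors over the listed genes. Apaf1, the core of the apoptosome, rose by 1.58 on the log2 scale (SE 0.18, adjusted p = 0.000171), and was not called with those factors. In WT + TCPOBOP, 3 of the 40 are listed and only Gdf15 was called, with a rise of 3.92 (SE 0.28, adjusted p = 4.54e-05). Of the 679 genes tested there, 51.3% were called higher.

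Of 43 cell cycle regulators outside the naming rule, 24 are listed for Setd8-LKO + TCPOBOP, of which 21 rose and 2 fell, with a median log2 fold change of 2.51, beside 50.7% called higher, 33.9% lower and a median of 1.19 over all genes tested. With size factors over the listed genes, 16 were called higher and 2 lower, with a median of 1.73. The mitotic kinase Plk1 went from 10.0 ± 4.36 to 255 ± 49.9 normalized counts and Foxm1, a transcription factor of mitotic genes, from 10.2 ± 5.36 to 155 ± 30.5 (SD, n = 5 and 4). Mki67, which encodes the proliferation marker Ki67, rose by 4.17 on the log2 scale (SE 0.52, adjusted p = 0.000365). Securin (Pttg1), the inhibitor of separase, fell by 1.14 (SE 0.21, adjusted p = 0.00452) while separase (Espl1) rose by 3.82 (SE 0.33, adjusted p = 3.96e-05), and Tfdp2, a partner of E2F factors, fell by 1.28 (SE 0.31, adjusted p = 0.0300). In WT + TCPOBOP, 7 are listed and 3 of them, Cdc6, Gadd45a and Gadd45b, were called higher, beside 51.3% of the 679 genes tested there.

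Markers of liver cell types could be read only among the listed genes, which the authors chose on this same contrast. Of all genes tested, 50.7% were called higher and 33.9% lower. All 7 listed hepatocyte markers of 10 were lower on average and 6 fell, with summed normalized counts from 1154061 to 1890881 in untreated WT and from 469219 to 664905 in those labelled Setd8-LKO. Of 10 stellate cell and fibroblast markers 6 are listed and all 6 rose (sums of 2455 to 3922 against 6589 to 15506), and of 8 cholangiocyte markers 7 are listed and 6 rose (448 to 705 against 1646 to 7545). Of 12 Kupffer cell and macrophage markers 3 are listed and rose (88 to 308 against 432 to 663). Of 12 lymphocyte and neutrophil markers 2 are listed and neither passed the test (6 to 100 against 71 to 121), and no endothelial marker of 8 is listed. With size factors over the listed genes, 7 hepatocyte markers were called lower, and 3 stellate cell and fibroblast, 3 cholangiocyte and 0 Kupffer cell and macrophage markers higher. The paper reports far fewer hepatocytes on sections of Setd8-LKO livers after TCPOBOP than of wild type, and more small mononuclear cells. The part of such shifts between cell types in the changes of the members was not tested.

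At the promoters of the 31 genes, the authors' peak lists of untreated WT liver and of Setd8-LKO liver after TCPOBOP were compared. H3K27ac marks active promoters and enhancers, ATAC-seq reads accessible DNA, CTCF is an architectural factor and Smc3 a subunit of cohesin. There is 1 list per condition, from assays with 2 to 5 libraries each, so no test was made, and whether libraries were pooled is not given in the sources used here. Genes were scored by peaks within 1000 bp of an annotated start. H3K27ac was listed at 27 members in untreated WT and at 28 in Setd8-LKO + TCPOBOP, and ATAC-seq peaks at 22 in each list, so that most members already carried open, acetylated promoters in untreated liver. The shares among all listed genes were lower, at 60.2% and 63.8% for H3K27ac and 44.0% and 37.6% for ATAC-seq.

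Fold enrichment, as MACS2 gives it, was read from the peak of each gene with the largest -log10 p. For H3K27ac it was larger in Setd8-LKO + TCPOBOP at 21 of the 26 members with a peak in both lists (80.8%, median ratio 1.22). The share was 74.3% among listed genes called higher in RNA, with a larger median ratio of 1.35. It was 57.7% of all listed genes (median ratio 1.10) and 51.9% of protein-coding genes (median ratio 1.02). For ATAC-seq the fold enrichment was larger at 7 of 19 members (36.8%, median ratio 0.939), beside 30.6% of listed genes (median ratio 0.935). ATAC-seq peaks stood in the untreated WT list alone at Ccne1, Cdc25b and Trp53i13, and in the Setd8-LKO + TCPOBOP list alone at E2f2, Eda2r and Rbl1. The largest H3K27ac ratios belonged to Ccna2 (8.29 to 32.4), Ccnb2 (5.40 to 17.8), Cdkn1a (11 to 30.2), Cdc20 (8.50 to 22.3), Cdkn3 (12.4 to 27.7) and Phlda3 (25.3 to 51.8). Ccnb1 and Trp53cor1 had a peak only in the Setd8-LKO + TCPOBOP list, with fold enrichments of 8.57 and 12.2. Wee1, Ccng1, Cdk8, Cdk18 and Ccne1 had the higher value in untreated WT. In RNA, Wee1, Ccng1 and Cdk18 were called higher, and Cdk8 and Ccne1 did not pass the test. Trp53i13, which fell in RNA, had the higher H3K27ac value in Setd8-LKO + TCPOBOP (48.0 to 53.6). Ccnb1ip1 had a peak in untreated WT only, and Eda2r and Ccnb1-ps had none in either list.

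Smc3 peaks stood at 6 members in untreated WT, those of Ccnd1, Btg2, Cdk18, Cdk8, Cdkn2b and Wee1, and at 29 in Setd8-LKO + TCPOBOP. A peak in the second list only was found at 74.2% of members, beside 40.6% of all listed genes and 41.9% of annotated protein-coding genes. The lists hold 13045 and 21615 Smc3 peaks. When the longer list was reduced to as many top peaks as the shorter one, 27 members (87.1%) still had one in Setd8-LKO + TCPOBOP, beside 48.9% of listed and 49.2% of protein-coding genes. In untreated WT the 6 members are 19.4%, beside 19.3% of listed and 17.2% of protein-coding genes.

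CTCF peaks stood at 3 members in untreated WT, Ccnd1, Cdkn2b and E2f2, and at 19 in Setd8-LKO + TCPOBOP, again from lists of unequal length, 5838 and 20905 peaks. A peak in the second list only was found at 51.6% of members, beside 35.2% of listed genes and 36.6% of protein-coding genes, and with lists of equal length 8 members (25.8%) carried one in Setd8-LKO + TCPOBOP, beside 15.8% of listed and 14.9% of protein-coding genes. The fold enrichment of the CTCF peak with the largest -log10 p was 16.5 in untreated WT and 85.9 in Setd8-LKO + TCPOBOP at Cdkn2b. At E2f2 it was 12 and 78.3, and at Ccnd1 20.2 and 60.7. This value was higher in Setd8-LKO + TCPOBOP at 93.3% of listed genes with a CTCF peak in both lists. Lamin A/C islands, which mark DNA at the nuclear lamina, covered the start of 1 member, Ccnb1-ps, in both lists (3.23%). The shares of listed genes were 7.05% in untreated WT and 5.27% in Setd8-LKO + TCPOBOP. H4K20me3 islands, which mark heterochromatin, covered the starts of Ccnb1-ps and E2f7 in both lists (6.45%), beside 4.19% and 4.96% of listed genes.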

How the data were processed

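Livers of untreated WT (n = 5), WT + TCPOBOP (n = 5) and Setd8-LKO + TCPOBOP (n = 4) mice were analysed by RNA-seq, and peak lists of chromatin assays on 41 further libraries were read at promoters. According to the methods, the authors pre-processed RNA-seq reads (PRINSEQ), mapped them to the mm10 genome (HISAT2) and obtained counts, normalized counts and tests with metaseqR. Raw counts were deposited per gene and library, and the normalized counts deposited beside them, a score rounded to whole numbers, are the raw count times 1 factor per library (deviation at most 0.0617% for counts over 1000). The tables hold only genes that the authors selected by FDR and fold change, and 114 columns of transformed values and the authors' own p-values, FDR and fold changes were not used. For the chromatin assays, the authors called peaks with MACS2 2.2.7.1, which gives the deposited fold enrichment, a ratio, and the deposited -log10 p, and islands with a SICER score. Whether strand was used in counting is not given in the sources used here.

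Each whole table of counts was fitted by quasi-likelihood in edgeR 4.0.16 (R 4.3.3) with the authors' factors, for genes with at least 10 counts in as many libraries as the smaller group has, with Benjamini-Hochberg adjustment over 55450 GENCODE M21 genes. The call threshold was an adjusted p of 0.05 together with a log2 fold change of 1 in size. The SE was computed back from the log2 fold change and the F statistic of the test. The 95% intervals use normal quantiles with this SE, so with groups this small they are narrower than the test itself implies. Alternatives used DESeq2 1.42.0 and limma 3.58.1 (log2 of the normalized count plus 1). For single genes, mean normalized counts were compared by exact permutation (two-sided). The comparison of the 2 treated groups was not planned, and was added because the factors proved to be the same in both tables. Gene positions are those of the deposited tables (mm10), and start and end of all 31 members are the same in GENCODE M21. Promoter sequences are from RefSeq, GRCm38.p6. Python 3.11.15, pandas 2.3.3, numpy 2.4.6 and matplotlib 3.10.9 were used. No 2 libraries had identical counts.

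The members, the lists and the tests were chosen with earlier results of these data known. Values per library are given for the member with the largest rise and fall in each role, for all members listed for WT + TCPOBOP and for a fixed list of cell cycle and p53 genes, and the rest by range. Columns were assigned to libraries by the labels.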

Additional observations from a re-analysis of the deposited data

Results flagged for a closer look

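In groups of 4 or 5 libraries, the gap between an extreme library and its neighbour was large against the group's whole range (Dixon's test at the 95% level) in 4 of 66 groups of member values, and chance alone flags about 1 in 20. Rbl1 stood at 298 normalized counts in library 2 labelled Setd8-LKO, with the other 3 between 229 and 231. Cdk8 stood at 5588 in library 4 labelled Setd8-LKO, the only one of its group from run A, with the others between 1050 and 1308. Ccnb2 stood at 24 in untreated WT library 5, with the others between 13 and 16. Cdkn3 stood at 7 in untreated WT library 3, with the others at 0 or 1. Only for Cdk8 does the flagged library fall into the range of the other group.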

How the results depend on the processing

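For the libraries labelled Setd8-LKO against untreated WT, 29 members were called, 28 of them higher, and under the alternatives the count was 30 with TMM over the listed genes, 30 with DESeq2 on the authors' factors, 29 with limma, with no filter and with run as a term, 20 with size factors that DESeq2 took from the listed genes, and 30 with adjustment over the listed genes alone. Without 1 library it was 27 to 30 (26 to 29 higher). No member reversed, and 21 of 31 kept their call under all 17 alternatives. The replicate numbers do not pair the libraries: deviations of libraries with the same number correlated at -0.145 to 0.065 for Setd8-LKO + TCPOBOP and -0.406 to 0.222 for WT + TCPOBOP, and 1 number in each correlated best with its own. With the replicate block, 26 members were called, and over all genes the count went from 3221 to 2237, and from 458 to 159 for WT + TCPOBOP, where 1 member stayed called. For WT + TCPOBOP, 1 member was called, 0 with size factors over the listed genes (median shift of all genes -1.17, 260 genes called), 4 with adjustment over the listed genes alone, and 1 to 1 without 1 library. With TMM over the listed genes the shift was -0.99, with 260 genes called, 72 higher, against 348 of 458 with the authors' factors. For Setd8-LKO + TCPOBOP, size factors over the listed genes left 2276 genes called, 816 higher, against 1932 of 3221. The comparison of the treated groups, chosen after the data had been seen, called Ccnb1 and Cdc20 with run as a term, with the replicate block, with the treated groups only, with DESeq2 and without each treated library (2 to 2 members), and called E2f2 beside them with adjustment over the genes of both tables alone. At member promoters, CTCF peaks of the Setd8-LKO + TCPOBOP list stood at 8 members in place of 19 when both lists were of equal length, and those of the untreated WT list at 1 in place of 3 when only the start of the gene record was used. A mean under 10 normalized counts in untreated WT limits the precision of the fold changes of 8 members.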
